A study of Mus musculus with 2 samples.

Results

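The mitochondrial oxidative phosphorylation system was examined as a set of 85 nuclear genes, out of 12393 genes read on the same arrays. The members were taken by symbol. They are the Ndufa, Ndufb, Ndufc, Ndufs and Ndufv genes of complex I (39 genes), Sdha to Sdhd of complex II (4), the Uqcr genes and Cyc1 of complex III (9), the Cox genes numbered 4 to 8 of complex IV (16) and the Atp5 genes of complex V (17). The symbol rule also took 5 Ndufaf genes, whose products assist the assembly of complex I and are not part of it. The arrays were Affymetrix mouse 430A 2.0 GeneChips of splenocyte RNA from male DBA/1 mice, which were 6 to 8 weeks old at purchase, taken at day 10. One array came from mice given 300 μg of recombinant human GPI-GST and the other from control mice given 100 μg of GST, and both groups received their protein in complete Freund's adjuvant. Each group comprised 3 spleens, and it is not stated whether their RNA was pooled. There was thus 1 array per group and no replicate, so no test was possible, and every ratio describes these 2 arrays. In what follows, signals "with GPI" are those of the GPI-immunized array and signals "in control" those of the control array.

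In oxidative phosphorylation, complexes I and II pass electrons from NADH and succinate to coenzyme Q, complex III passes them on to cytochrome c, and complex IV passes them to oxygen. Complexes I, III and IV pump protons across the inner mitochondrial membrane, and complex V, the ATP synthase, uses their return to make ATP. Most subunits are encoded in the nucleus and a few in mitochondrial DNA, and the nuclear genes are expressed in nearly every cell, the spleen's lymphocytes, myeloid cells and erythroid precursors included. In whole splenocytes, fewer cells of one type and less RNA per cell cannot be told apart.

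Each gene was read with its brightest probe set, a group of short oligonucleotides whose brightness is summarized as 1 signal. The median signal was 51.8 on the GPI-immunized and 48.65 on the control array, a difference of 0.09 on the log2 scale, and the ratios given here are of the deposited signals without further scaling. A gene passed the filter when the higher of its signals reached 50.2, the median of all signals, which 6961 genes and 82 members did. Control probe sets for bacterial transcripts, which served as the background level, reached 7.2 on the GPI-immunized and 14.1 on the control array. The 18 probe sets for transcripts that the standard protocol adds before hybridization had a median ratio of 0.873, and 17 of them were below 1. Among probe sets of one gene, log2 ratios had an SD of 0.28 (2538 genes), a factor of 1.21, which holds no difference between mice.

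Most oxidative phosphorylation genes were slightly higher on the GPI-immunized array, and few were far from a ratio of 1. Of the 82 that passed, 67 had a ratio above 1 and 15 (18.3%) a ratio under 1, where 42.4% of all genes that passed were under 1. The median log2 ratio was 0.16 (a ratio of 1.12) for the set, against 0.06 (1.04) for all genes. The set was also narrow. Its interquartile range was 0.22 on the log2 scale, and that of all genes 0.42. Signals at least 25% higher on the GPI-immunized array were found in 13 members (15.9%), beside 20.0% of all genes, and signals at least 20% lower in 1 member (1.22%), beside 12.0%. Between these limits lay 68 of the 82 (82.9%), beside 68.0% of all genes. One member reached a ratio of 2 (1.22%, beside 2.23% of all genes) and 1 lay at 0.5 or under (beside 0.445%), so the shares past these larger folds are not a result about the set. On the same arrays the neutrophil genes had a median log2 ratio of 1.03, the B cell markers of -0.43 and the T cell markers of -0.48, and the part of cell composition in the ratios of the members was not tested.

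The split changed with the scaling of the arrays. With each array scaled to its own median signal, 58 of the 82 members (70.7%) were above 1, beside 45.1% of all genes, and the medians were 0.07 for the set and -0.04 for all genes. The distance between both medians was 0.11 with the deposited signals and again 0.11 after division by the median, after quantile normalization and after loess centring. Among the brighter genes, whose higher signal was at or above the 75th percentile, the median was 0.17 for 75 members and 0.05 for all 3868 genes. The interquartile range among these brighter genes was 0.19 for the members and 0.38 for all genes.

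**Figure D1:**
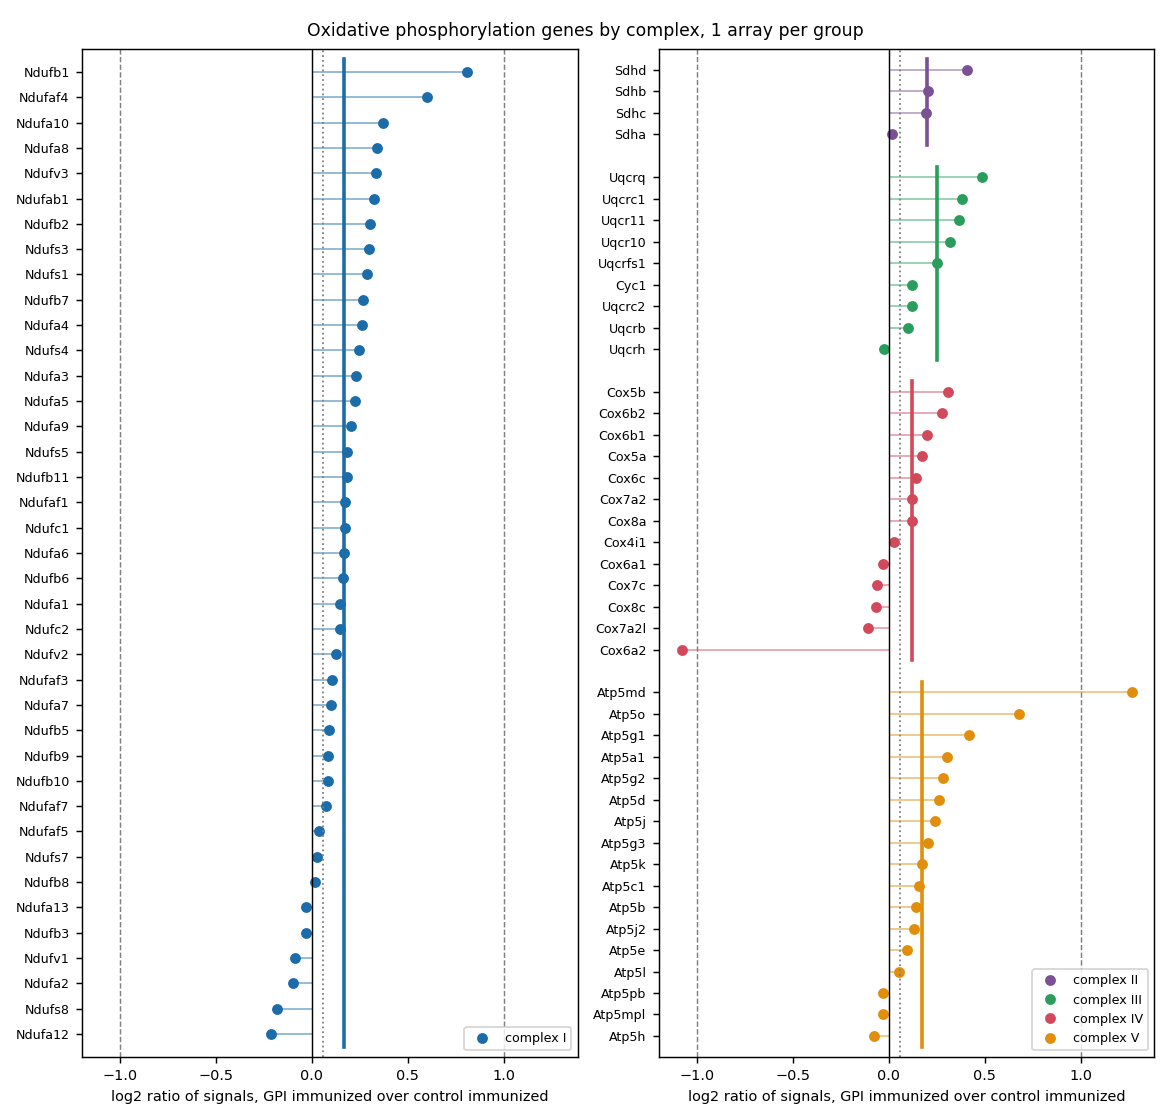
GPI-immunized over control signal as a log2 ratio (horizontal axis), plotted for the 82 oxidative phosphorylation genes that passed the filter, 1 point per gene from 1 array per group, grouped by complex. Solid vertical lines mark the median of each complex (0.17, 0.20, 0.25, 0.12 and 0.17 for I to V), the dotted line the median of all genes (0.06) and the dashed lines the 2-fold ratios, beyond which lie Atp5md (1.27) and Cox6a2 (-1.08).

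A signal also depends on the probe set, so signals of different genes are not compared as levels. Signals of those that passed ran from 36.8 to 4509.9 on the GPI-immunized array and from 53.1 to 4216.0 on the control array, and 75 of the 85 reached the 75th percentile. The probe set with the highest signal was that of Uqcrb, a small subunit of complex III, at 4509.9 on the GPI-immunized and 4216.0 on the control array (ratio 1.07). The 3 members that did not pass were all complex IV isoforms of other tissues. For Cox4i2 (9.2 on the GPI-immunized and 2.2 on the control array), Cox7a1 (6.2 with GPI and 12.6 in control) and Cox8b (1.0 with GPI and 2.6 in control), every signal was at or under the highest bacterial control signal of 14.1, so no ratio is read from them.

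**Figure D2:**
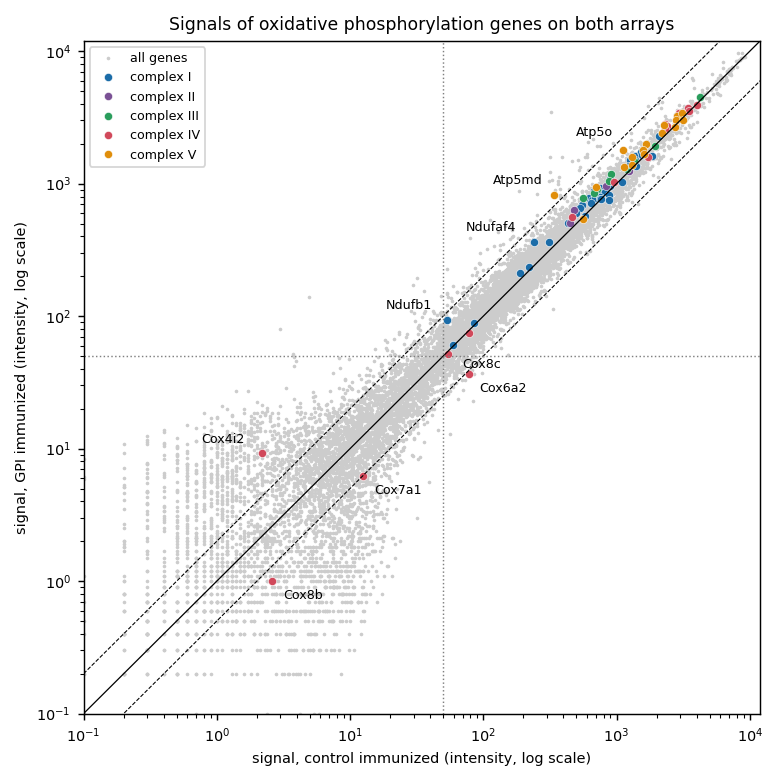
GPI-immunized signals (vertical axis) plotted over control signals (horizontal axis), intensities on log scales, 1 point per gene and 1 array per group, with ratios of 2, 1 and 0.5 as diagonal lines and the filter at 50.2 as dotted lines. Most oxidative phosphorylation genes lie in a band at high signals, with Atp5md above it. A few, Cox8c and Ndufaf5 among them, lie near the filter, as does Cox6a2, which is under the ratio of 0.5. Cox4i2, Cox7a1 and Cox8b lie in the scatter of signals under 14.1.

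Of all genes that passed, 57.5% had a ratio above 1, the share to set beside the counts of each complex. Complex I, NADH dehydrogenase, had a median log2 ratio of 0.17, with 33 of 39 genes above 1 (84.6%). Its 6 measured core subunits, most of which carry the flavin or iron-sulfur centers, had a median of 0.08 and split 4 to 2. The core subunit Ndufs3 had signals of 840.7 on the GPI-immunized and 684.7 on the control array (ratio 1.23), and Ndufs1, the largest iron-sulfur subunit, 605.1 with GPI and 495.5 in control (1.22). Ndufs7 was nearly even at 770.0 with GPI and 756.4 in control (1.02). Below 1 were Ndufv1, which binds NADH, at 822.5 with GPI and 875.1 in control (0.940) and Ndufs8 at 1618.5 with GPI and 1833.5 in control (0.883). These values rest on the brightest probe set, however. The other 2 probe sets of Ndufv1 had log2 ratios of 0.32 and 0.20, and the other 5 of Ndufs8 had ratios from 1.18 to 1.58.

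The accessory subunits surround the core and are needed for its assembly or stability. The 16 of the A, S and V series had a median log2 ratio of 0.21 with 13 above 1, and the 12 of the B and C series a median of 0.15 with 11 above 1. The highest of the A series was Ndufa10, with 875.8 on the GPI-immunized and 677.3 on the control array (ratio 1.29). Ndufa8 followed at 693.0 with GPI and 547.4 in control (1.27), then Ndufv3 at 784.4 with GPI and 622.8 in control (1.26). Ndufab1, the mitochondrial acyl carrier protein, which is also used in fatty acid synthesis, stood at 935.6 with GPI and 746.9 in control (log2 ratio 0.32). A dimmer probe set of Ndufab1, at 80.6 with GPI and 43.8 in control, had a log2 ratio of 0.88. The lowest was Ndufa12 at 755.4 with GPI and 876.0 in control (0.862), though another of its probe sets, with 914.7 with GPI and 708.6 in control, had a ratio of 1.29. Ndufa2 followed with 1023.2 with GPI and 1095.9 in control (0.934). Ndufa4, which was placed here by its symbol and is counted as a subunit of complex IV, had 1505.5 with GPI and 1255.4 in control (1.20). Ndufa1, with the highest signal of the complex I genes, had 2293.1 with GPI and 2073.7 in control (1.11).

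Other accessory subunits had probe sets on both sides of 1. Ndufa7 had 957.7 on the GPI-immunized and 893.1 on the control array (ratio 1.07), and its 4 other probe sets ran from 0.934 to 1.26. Ndufb9 had 1643.0 with GPI and 1549.1 in control (1.06), with 0.952 on another, and Ndufb11 1725.2 with GPI and 1522.6 in control (1.13), with 0.999 on another.

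Ndufb1 (Entrez Gene 102631912) had the highest ratio of complex I, 1.75, from signals of 93.1 on the GPI-immunized and 53.1 on the control array. Its signals are among the dimmest of the set and came from a single probe set. Of the 5 assembly factors, all above 1 with a median log2 ratio of 0.10, Ndufaf4 (Entrez Gene 68493) stood apart at 364.5 with GPI and 240.5 in control (1.52). Its second probe set, at 123.7 with GPI and 72.5 in control, had a ratio of 1.71, so both readings of this gene lay on the same side. The other assembly factors were close to even, from 1.03 (Ndufaf5) to 1.13 (Ndufaf1).

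Complex II, succinate dehydrogenase, is shared with the tricarboxylic acid (TCA) cycle and is encoded wholly in the nucleus. All 4 genes were above 1, with a median log2 ratio of 0.20. Sdhd, a membrane anchor, had 630.6 on the GPI-immunized and 476.3 on the control array (ratio 1.32), but its dimmer probe set, at 132.7 with GPI and 145.9 in control, had a ratio of 0.910. Sdhb, the iron-sulfur subunit, had 965.1 with GPI and 838.2 in control (1.15), and the other anchor Sdhc 508.3 with GPI and 443.9 in control (1.15). Sdha, the flavoprotein, was even at 1247.2 with GPI and 1232.8 in control (1.01), with 0.869 on its other probe set.

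Complex III, the cytochrome bc1 complex, had the highest median of the 5 complexes, 0.25 on the log2 scale, with 8 of 9 genes above 1. Averaging the log2 ratios of all probe sets of each gene moved it to 0.12, and complex I was then the highest, as it also was without probe sets that can match several transcripts (names ending in _s_at, _x_at or _a_at). Uqcrq, a small subunit, had 777.1 on the GPI-immunized and 556.0 on the control array (ratio 1.40). Its 3 other probe sets, with signals between 1.4 and 23.6, did not pass the filter. The core protein Uqcrc1 stood at 1186.2 with GPI and 910.4 in control (1.30), and the small subunits Uqcr11 at 911.4 with GPI and 707.9 in control (1.29) and Uqcr10 at 843.5 with GPI and 676.6 in control (log2 ratio 0.32). The Rieske iron-sulfur protein Uqcrfs1 had 1043.6 with GPI and 878.1 in control (1.19). Cytochrome c1, encoded by Cyc1, was closer to even at 1475.0 with GPI and 1355.0 in control (1.09), as was Uqcrc2 at 1298.6 with GPI and 1195.2 in control (1.09), with 0.991 on its other probe set. Uqcrh, the hinge protein, was the single gene of the complex under 1, at 1927.8 with GPI and 1960.4 in control (0.983).

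Complex IV, cytochrome c oxidase, had the lowest median, 0.12 on the log2 scale. Without the probe sets that can match several transcripts, complex V was the lowest instead. Of the 13 genes of complex IV that passed, 8 (61.5%) were above 1, beside 57.5% of all genes. At 25% higher or more were 0 of the 13, beside 20.0% of all genes. With 13 genes, these shares are not read as a result about complex IV. The nuclear subunits of cytochrome c oxidase surround a core that mitochondrial DNA encodes. The 9 widely expressed subunits ran from 0.959 to 1.24. Highest was Cox5b, with 2846.0 on the GPI-immunized and 2298.4 on the control array (ratio 1.24). Its 3 other probe sets with high signals had ratios from 1.15 to 1.39. Cox6b1 had 3400.6 with GPI and 2962.0 in control (1.15), Cox5a 2702.6 with GPI and 2396.6 in control (1.13) and Cox7a2 3709.5 with GPI and 3416.4 in control (1.09). Cox8a, the widely expressed form of subunit 8, had 1033.4 with GPI and 951.9 in control (1.09). Cox4i1, a subunit through which the enzyme is regulated by ATP, was even at 3549.4 with GPI and 3478.6 in control (1.02). Cox6a1 had 3952.2 with GPI and 4041.3 in control (0.978) on one probe set and a ratio of 1.16 on the other. Cox7c had only 74.7 with GPI and 77.9 in control (0.959) on its brightest probe set. Cox7a2l is a factor that joins complexes III and IV into supercomplexes, and of the 41 members with 2 or more probe sets that passed it was the one with all of them under 1. The brightest of its 3 probe sets had 1589.1 with GPI and 1715.5 in control (0.926), and the others ratios of 0.924 and 0.874. All 3 log2 ratios were closer to 0 than the SD of 0.28 between probe sets of one gene. By their names (_x_at or _a_at) all 3 can match several transcripts.

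Several complex IV subunits have isoforms that are restricted to certain tissues, and Cox6a2, the heart and skeletal muscle form of subunit 6a, had the lowest ratio of the whole set. It had signals of 36.8 on the GPI-immunized and 77.8 on the control array, which gave a ratio of 0.473 from a single probe set. The signal of the GPI-immunized array lay under the filter. With all signals raised to at least the filter, its log2 ratio was -0.63 and no longer past 2-fold. Of the testis forms, Cox8c had 52.0 with GPI and 54.5 in control (ratio 0.954), and Cox6b2 had 561.6 with GPI and 462.9 in control (ratio 1.21). The other forms restricted to certain tissues are the 3 genes at background given above.

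Complex V, the ATP synthase, had a median log2 ratio of 0.17 with 14 of 17 genes above 1. The rotary head and stalk were all above 1 over a narrow range, from 1.07 for Atp5e to 1.23 for Atp5a1. Atp5a1, the α subunit, had 2782.9 on the GPI-immunized and 2258.0 on the control array, and Atp5b, the catalytic β subunit, 3426.1 with GPI and 3108.1 in control (1.10). Atp5c1, the γ subunit, had 2428.9 with GPI and 2181.5 in control (1.11), while a dim probe set of the same gene gave 48.6 with GPI and 86.0 in control (0.565). The genes of the c ring, which encode the same mature protein with different import sequences, were all above 1. Atp5g1 had 941.5 with GPI and 705.6 in control (1.33), Atp5g2 1585.6 with GPI and 1302.6 in control (1.22) and Atp5g3 3256.3 with GPI and 2831.7 in control (1.15). Averaged over all its probe sets, the second of which was under the filter, the log2 ratio of Atp5g2 was -0.02.

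The peripheral stalk, which holds the head in place, split 2 to 2. Atp5o (Entrez Gene 28080), the subunit that confers oligomycin sensitivity, had 1792.0 on the GPI-immunized and 1120.8 on the control array (ratio 1.60), yet its other probe set was even at 573.5 with GPI and 577.6 in control (0.993). Averaged over both, its log2 ratio was 0.33 instead of 0.68. Atp5j stood at 1345.1 with GPI and 1137.2 in control (1.18). Atp5pb had 2681.6 with GPI and 2736.4 in control (0.980) and Atp5h 3016.6 with GPI and 3181.5 in control (0.948), and both had a second probe set slightly above 1 (1.08 and 1.04).

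Atp5md (Entrez Gene 66477), which encodes a small membrane subunit of the ATP synthase also known as DAPIT, had the highest ratio of the set. It had signals of 823.6 on the GPI-immunized and 342.4 on the control array, with a ratio of 2.41 and a log2 ratio of 1.27. It was read with a single probe set, so there was no second reading of it on these arrays. Both signals are far over the background, and the ratio passed 2 under every scaling and floor tried. The other small membrane subunits did not share this ratio. Atp5k had 1793.8 with GPI and 1590.8 in control (1.13), with its other 2 probe sets at 1.13 and 1.17. Atp5j2 had 3050.8 with GPI and 2787.6 in control (1.09), Atp5l 1670.1 with GPI and 1610.3 in control (1.04) and Atp5mpl 546.1 with GPI and 557.9 in control (0.979).

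The probe sets of a member did not always lie on the same side of 1. Of the 157 member probe sets with a single symbol, 141 passed the filter and 115 of these (81.6%) had a ratio above 1, beside 59.5% of all 10739 probe sets that passed. In 41 members 2 or more probe sets passed. All were above 1 in 26 of these genes, all below 1 in 1 gene (Cox7a2l), and on both sides in 14. With 81.6% of member probe sets above 1, unrelated probe sets would often share a side as well. The share of all genes whose probe sets lie on one side was not computed, so these counts are not read as agreement. Between probe sets of one member the SD of the log2 ratio was 0.19, beside 0.28 for all genes. The members were also brighter, with a median signal with GPI of 994.15, beside 237.7 for all genes that passed. An SD at like signals was not computed, so the smaller SD is not read as closer agreement. A further 8 probe sets carry several gene symbols, at least 1 of them by the rule, and were left out of the set. The 6 of them that passed had ratios from 1.10 to 1.30.

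**Figure D3:**
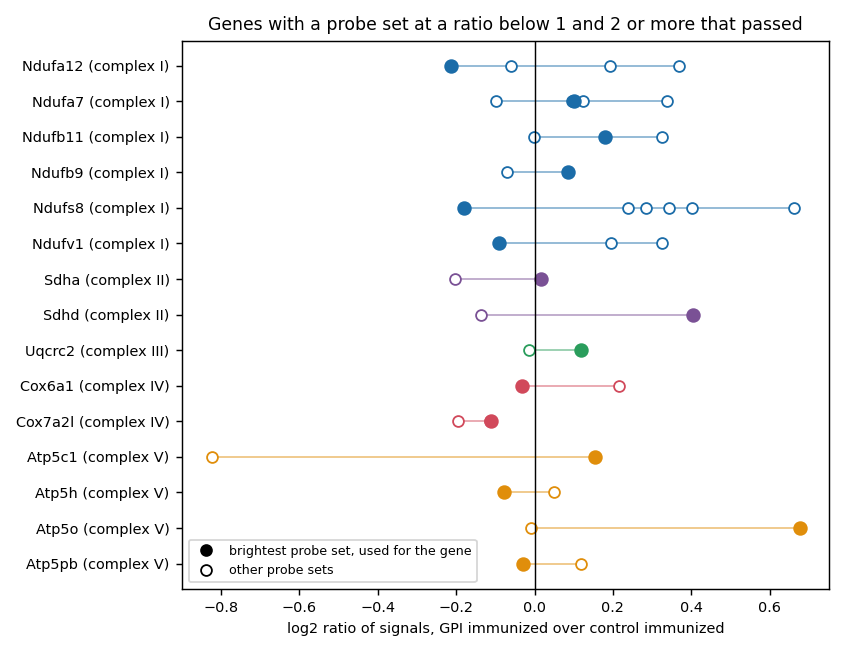
GPI-immunized over control signal as a log2 ratio (horizontal axis), plotted for each probe set that passed the filter, in the 15 genes with 2 or more such probe sets of which at least 1 was below 1, from 1 array per group. Filled points are the brightest probe set, which stands for the gene, and open points the others. For Ndufs8, Ndufv1 and Ndufa12 the brightest probe set has the lowest log2 ratio (-0.18, -0.09 and -0.21), and for Atp5o the highest (0.68).

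The promoters of the members were read for motifs of factors known to act on nuclear genes of the respiratory chain, which the choice of members did not use. RefSeq promoters (GRCm38.p6) were found through the gene ID for 70 of the 85 members, 75 sequences with 250 bases before and 50 after the start. The core of the nuclear respiratory factor 1 (NRF-1) motif, GCATGCGC on either strand, was in 11 of the 75 (14.7%), beside 2.71% of all promoters in the table and 5.84% of those of genes that passed the filter. The ETS core CCGGAAG, which GABP (nuclear respiratory factor 2) binds, was in 18 (24.0%), beside 8.86% and 19.9%. The YY1 core AAGATGG was in 10 (13.3%), beside 6.34% and 7.89%, and the Sp1 motif GGGCGG in 32 (42.7%), beside 35.7% and 63.8%. The ETS and YY1 cores can share the letters AAG, and the NRF-1 core can overlap its own reverse complement, which then counts once per strand. A match describes letters in these windows and not binding.

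The sequences of 3 promoters are shown 5′ to 3′. They are those of the member with the highest ratio (Atp5md) and of the assembly factor with both probe sets over 1.5 (Ndufaf4). For comparison, that of a bright member with a ratio near 1 on its brightest probe set (Cox6a1) is shown. Capitals mark the NRF-1 and ETS cores, on either strand.
Atp5md, chr19:47090598-47090897, minus strand: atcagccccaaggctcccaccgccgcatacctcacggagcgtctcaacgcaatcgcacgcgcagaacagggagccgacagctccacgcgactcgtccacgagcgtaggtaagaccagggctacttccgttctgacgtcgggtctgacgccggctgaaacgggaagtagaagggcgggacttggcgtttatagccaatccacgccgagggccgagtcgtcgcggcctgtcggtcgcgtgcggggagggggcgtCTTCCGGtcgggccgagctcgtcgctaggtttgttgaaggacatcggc
Ndufaf4, chr4:24897833-24898132, plus strand: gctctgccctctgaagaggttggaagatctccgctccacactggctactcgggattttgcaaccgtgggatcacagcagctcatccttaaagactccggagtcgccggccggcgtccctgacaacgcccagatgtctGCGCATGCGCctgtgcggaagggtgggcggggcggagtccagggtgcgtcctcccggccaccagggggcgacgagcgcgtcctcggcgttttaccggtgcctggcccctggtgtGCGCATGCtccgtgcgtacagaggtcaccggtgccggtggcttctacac
Cox6a1, chr5:115348909-115349208, minus strand: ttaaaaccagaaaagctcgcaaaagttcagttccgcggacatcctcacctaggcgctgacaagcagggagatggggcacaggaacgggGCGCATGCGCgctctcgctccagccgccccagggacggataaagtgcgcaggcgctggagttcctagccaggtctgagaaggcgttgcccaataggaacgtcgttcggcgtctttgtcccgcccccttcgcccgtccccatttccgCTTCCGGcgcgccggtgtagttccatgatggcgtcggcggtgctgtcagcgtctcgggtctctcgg
Ndufaf4 has 3 NRF-1 matches and no ETS match, Atp5md 1 ETS match and no NRF-1 match, and Cox6a1 both (2 and 1). On the brightest probe set of each, the ratios were 1.52 (Ndufaf4), 2.41 (Atp5md) and 0.978 (Cox6a1), and the other probe set of Cox6a1 had 1.16. The 3 were picked by their ratios, and whether motifs and ratios go together was not tested.

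Lists of other mitochondrial genes were set beside the members. The TCA cycle and pyruvate dehydrogenase list had the median log2 ratio nearest theirs, 0.16, with 14 of 16 genes above 1 (87.5%, beside 57.5% of all genes). The carrier list (0.15) and the macrophage markers (0.15, 9 of 11 above 1), both given below, were nearly as near. In the TCA list, Suclg2, a succinyl-CoA ligase subunit, had 186.5 on the GPI-immunized and 113.0 on the control array (ratio 1.65). Idh2 had 263.9 with GPI and 187.1 in control (1.41) and Idh3a 856.5 with GPI and 656.5 in control (1.30). Of assembly factors other than the 5 members, 24 of 26 measured passed, and 17 of the 24 were above 1 (median 0.19). They were led by Oxa1l, which inserts proteins into the inner membrane, at 193.2 with GPI and 120.1 in control (1.61), Cox19 at 229.1 with GPI and 164.6 in control (1.39) and Bcs1l, which inserts the Rieske protein into complex III, at 130.2 with GPI and 98.4 in control (1.32). The list of cytochrome c, coenzyme Q synthesis and electron transfer flavoprotein genes went both ways. Of its 13 genes that passed, 8 were above 1, the median was 0.04, and ratios ran from 0.733 (Coq8a, 67.6 with GPI and 92.2 in control) to 1.53. Cycs, cytochrome c itself, had 1893.9 with GPI and 2007.1 in control (0.944), while Coq7 of coenzyme Q synthesis had 164.6 with GPI and 107.6 in control (1.53).

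In the list of carriers, channels and the ATP synthase inhibitor, 7 genes passed (median 0.15, 5 above 1), and the ADP/ATP carriers lay on both sides. Slc25a4, the form typical of heart and muscle, had 546.0 on the GPI-immunized and 763.4 on the control array (ratio 0.715), and Slc25a5, the form of proliferating cells, 3366.4 with GPI and 2865.1 in control (1.18). The outer membrane channels Vdac1 (1269.4 with GPI and 959.6 in control, ratio 1.32) and Vdac2 (1944.4 with GPI and 1543.6 in control, ratio 1.26) were higher. Atpif1, the inhibitor of the ATP synthase, had 2681.6 with GPI and 2885.4 in control (0.929). The 15 regulators of mitochondrial genes that passed were spread evenly (8 above 1, median 0.01). Tfb1m, which encodes a mitochondrial rRNA methyltransferase, was furthest from 1, at 184.6 with GPI and 144.6 in control (1.28), and Polg, the mitochondrial DNA polymerase, had 270.9 with GPI and 224.7 in control (1.21). Nrf1, which encodes NRF-1, was at 145.2 with GPI and 184.7 in control (0.786), Gabpa, the DNA-binding subunit of GABP, at 269.4 with GPI and 293.4 in control (0.918) and the mitochondrial transcription factor Tfam at 455.4 with GPI and 451.5 in control (1.01). Of the genes of the other motif factors, Sp1 had 613.6 with GPI and 731.7 in control (0.839) and Yy1 1069.9 with GPI and 985.6 in control (1.09). Ppargc1b, which passed, had 65.1 with GPI and 79.7 in control (0.817). The coactivator gene Ppargc1a had 10.8 with GPI and 11.4 in control, no higher than the bacterial control probe sets reached. One gene of mitochondrial DNA was read, ND5 of complex I, at 4471.2 with GPI and 4958.3 in control (0.902).

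**Figure D4:**
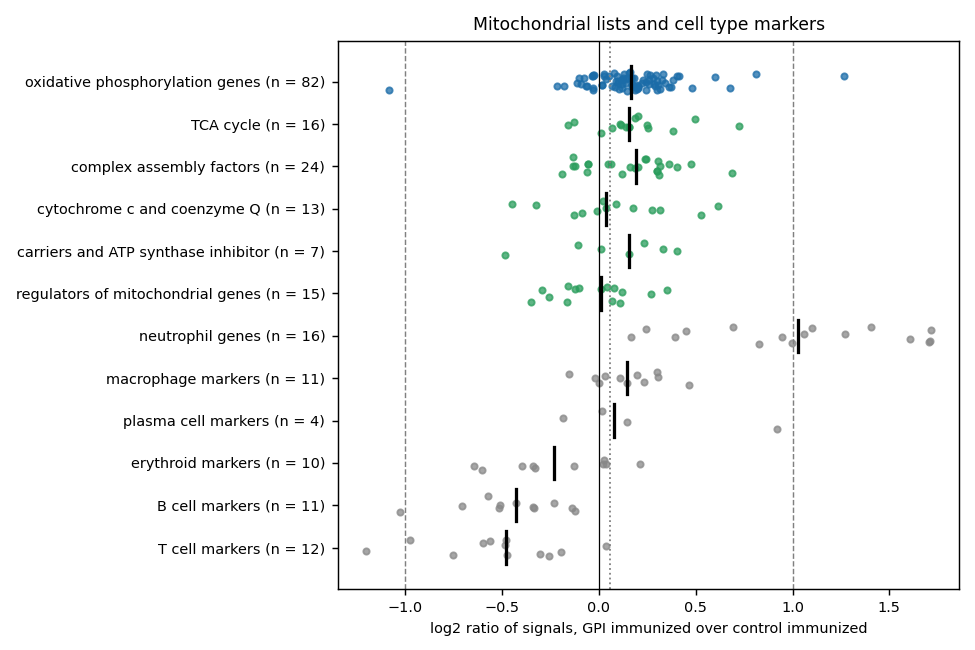
GPI-immunized over control signal as a log2 ratio (horizontal axis), plotted for the genes of each list that passed the filter, 1 point per gene from 1 array per group, vertical bars at the list medians, a dotted line at the median of all genes and dashed lines at the 2-fold ratios. Oxidative phosphorylation genes (blue) and TCA cycle genes have medians of 0.16, the neutrophil genes (grey) a median of 1.03 and the B and T cell markers medians of -0.43 and -0.48.

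Markers of neutrophils, B cells, T cells and erythroid cells had median log2 ratios further from 0 than that of the members in the same comparison. Of 19 neutrophil genes 16 were measured, and all passed and were above 1, with a median log2 ratio of 1.03 and a summed signal of 53264.8 on the GPI-immunized and 36202.3 on the control array. Of 15 T cell markers 13 were measured and 12 passed, of which 1 was above 1 (median -0.48, sums over all measured 2062.7 with GPI and 2852.7 in control). Of 14 B cell markers 12 were measured and 11 passed, 0 above 1 (median -0.43, sums 15151 with GPI and 19866.1 in control). Erythroid markers (11 of 14 measured, 10 passed, 4 above 1) had a median of -0.23 and sums of 29582.2 with GPI and 32566 in control, with Hba-a1 no higher than the bacterial control probe sets. Macrophage markers (12 of 12 measured, 11 passed, 9 above 1) had a median of 0.15 and sums of 10652.8 with GPI and 8667.8 in control, with Marco at that level, and plasma cell markers (6 of 7 measured, 4 passed, 3 above 1) a median of 0.08 and sums of 8759.4 with GPI and 7588.6 in control. The 3′ to 5′ ratio of β-actin, a measure of RNA quality, was 1.42 on the GPI-immunized and 1.49 on the control array. The part of RNA quality in the ratios of the members was not tested.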

How the data were processed

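Splenocyte RNA of GPI-immunized and control mice was hybridized to 1 array per group. The authors deposited a linear signal intensity for every probe set of each array. How these were summarized and scaled is not stated in the methods or labels. The labels describe whole-transcript cDNA labelling and the methods biotinylated cRNA.

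Gene symbols came from the annotation of the platform (20380 of 22626 besides 64 control probe sets have 1 symbol, 691 several and 1555 none), and all 85 members matched RefSeq GRCm38.p6 by gene ID with the same symbol. Array coordinates are not printed, since no build is named. The brightest probe set by mean log2 signal stood for each gene, signals of 0 were set to 0.1, and genes whose higher signal was under the 50th percentile were left out of counts and medians. Without replicates no test was made, and the number of arrays limits the precision. The members and lists were chosen with earlier results of these data known. The genes given with both signals are those furthest from a ratio of 1 and the brightest in each complex, members past 2-fold, isoforms, members with probe sets on both sides of 1 or under the filter, and up to 3 genes in other lists. Those named beyond this rule (such as Ndufs1, Ndufs7, Ndufa4, Cox5a, Atp5b, Cycs, Gabpa, Tfam, Sp1, Yy1 and Polg) were chosen after their values were seen. The grouping of members by role within a complex was not planned in advance. A median counted as moved past 0.1, a gene past the SD between probe sets and a count past 1.5 times. The steps were tested on simulated data with known ratios. Python 3.11.15, numpy 2.4.6, pandas 2.3.3, statsmodels 0.14.6 and matplotlib 3.10.9 were used.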

Additional observations from a re-analysis of the deposited data

How the results depend on the processing

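The median log2 ratio of the set stayed between 0.07 and 0.19 under the 10 alternatives, and the median of each complex kept its sign. It exceeded the median of all genes by 0.08 (mean of probe sets) to 0.13 (without shared probe sets). Members with a ratio under 1 numbered 15, and 24 after division by the median, 24 after quantile normalization and 7 of 58 without probe sets named _s_at, _x_at or _a_at. Members at least 25% higher numbered 13, and 6 with each array scaled to its median, 7 after loess centring and 7 after quantile normalization. Members at least 20% lower numbered 1, and 4 with the mean of probe sets, 2 without shared probe sets, 3 if unfiltered and 0 under the filter at the 75th percentile. Members at 2 or over numbered 1, and 2 if unfiltered. Members at 0.5 or under numbered 1, and 3 if unfiltered, 0 under the filter at the 75th percentile and 0 with signals raised to the 50th. The median of complex III was 0.12 with the mean of probe sets.

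Other scalings and the floor at the 25th percentile moved no single gene by more than 0.28. The mean of probe sets moved 10 and reversed 1 of the members at least 25% higher or 20% lower, Uqcrq, to -0.46, and leaving out shared probe sets moved 7 and reversed the same gene, to -0.28. Averaging also put Atp5c1 (-0.33), Ndufb9 (-0.28), Sdha (-0.09), Cox8a (-0.06), Ndufs4 (-0.05) and Atp5g2 (-0.02) under 0, and Ndufs8 (0.29), Ndufv1 (0.14), Cox6a1 (0.09), Ndufa12 (0.07) and Atp5pb (0.04) over 0. The other probe sets of Uqcrq are under the filter. Over all genes, 1390 were at least 25% higher and 836 at least 20% lower, against 954 and 1280 after division by the median. Without a filter, 1260 of all genes were at 2 or over and 1095 at 0.5 or under, against 155 and 31. At 0.5 or under were 47 after division by the median and after quantile normalization, 72 with the mean of probe sets and 11 with a floor at the 50th percentile. There were 70 genes at 2 or over and 5 at 0.5 or under with the filter at the 75th percentile. The causes of these changes were not tested. Leaving out a replicate was not possible with 1 array per group. No paired analysis was possible because each group has 1 array.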
